A study of Mus musculus with 4 samples.

Results

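The promoters described here are those of the mouse genes whose symbols start with H2-, the prefix of the mouse major histocompatibility complex (MHC) on chromosome 17. They were taken as every row of the deposited promoter table with that prefix, which gave 32 of 26354 promoters. The table holds H3K9me2 ChIP-seq reads, from an immunoprecipitation of chromatin carrying dimethylated lysine 9 of histone H3, counted within 1 kb on either side of transcription start sites. The chromatin came from vascular smooth muscle cells (VSMCs) isolated ex vivo, without culture, from the media of aortas of C57Bl/6J males, after the adventitia and endothelium had been stripped by hand. The 4 libraries are 2 ChIP libraries, from the experiments numbered v102 and v134, and the input library of each, made from chromatin without immunoprecipitation. No treatment or genotype differed between them, and neither the number of animals behind a library nor their age is given in the labels.

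MHC class I molecules carry peptides from inside the cell to CD8 T cells, and MHC class II molecules carry peptides from endocytosed proteins to CD4 T cells. Most cells can make classical class I, and its promoters respond to interferon and NF-kB, whereas class II is restricted to antigen-presenting cells unless interferon-gamma induces the transactivator Ciita. The mouse complex also holds the clustered Q, T and M genes, called non-classical, whose products often have narrow tissue expression. H3K9me2, deposited largely by the methyltransferases encoded by Ehmt2 and Ehmt1, is a histone mark of silent chromatin.

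By symbol, 2 members are classical class I (H2-K1 and H2-D1), 9 are class II, 4 are Q, 3 are T and 12 are M genes. The remaining 2, H2-Ke2 and H2-Ke6, are older names of neighbouring genes whose products are not MHC molecules. H2-Ke2 is now called Pfdn6, a prefoldin subunit, and H2-Ke6 is the hydroxysteroid dehydrogenase Hsd17b8. All 32 lie on chromosome 17, between 33938821 (the first base of H2-Ke2) and 37483552 (the start of H2-M2) in GENCODE M21 for GRCm38. A further 14 H2- symbols of that annotation, among them H2-Q6, H2-Q7, H2-T22 and H2-T23, have no row under that symbol in the promoter table. The Q and T classes here are therefore incomplete, and the reason for the absence was not tested.

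The 200 bases before the RefSeq start (GRCm38.p6) are shown for a classical class I gene, a pair of class II genes and 4 M genes, the 3 with the highest H3K9me2 and H2-M10.3 from the middle of the M range. Capitals mark matches to short motifs searched on both strands. These were an NF-kB site (GGGGATTCC), the core of an interferon response element (GAANNGAAA), the Y box bound by NF-Y (CTGATTGG) and an AP-1 site (TGANTCA), and where a match lies on the other strand the capitals show its reverse complement.
H2-K1 (chr17:34000348-34000547, minus strand): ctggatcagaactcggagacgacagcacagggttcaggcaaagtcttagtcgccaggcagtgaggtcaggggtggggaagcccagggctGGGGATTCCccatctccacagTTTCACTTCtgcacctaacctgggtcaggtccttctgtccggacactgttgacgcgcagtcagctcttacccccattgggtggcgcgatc
H2-Aa (chr17:34287824-34288023, minus strand): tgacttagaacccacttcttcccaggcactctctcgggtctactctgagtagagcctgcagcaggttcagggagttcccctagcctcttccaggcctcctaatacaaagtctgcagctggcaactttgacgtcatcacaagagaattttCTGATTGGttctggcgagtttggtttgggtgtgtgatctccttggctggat
H2-Eb1 (chr17:34305667-34305866, plus strand): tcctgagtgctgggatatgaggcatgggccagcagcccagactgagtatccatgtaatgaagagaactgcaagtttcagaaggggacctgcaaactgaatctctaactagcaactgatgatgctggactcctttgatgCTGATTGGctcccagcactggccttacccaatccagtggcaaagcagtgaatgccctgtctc
H2-M10.3 (chr17:36368418-36368617, minus strand): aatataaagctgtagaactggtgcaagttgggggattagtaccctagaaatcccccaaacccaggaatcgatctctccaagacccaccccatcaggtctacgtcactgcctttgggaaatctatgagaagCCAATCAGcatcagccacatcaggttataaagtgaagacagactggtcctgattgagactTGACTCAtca
H2-M11 (chr17:36546875-36547074, plus strand): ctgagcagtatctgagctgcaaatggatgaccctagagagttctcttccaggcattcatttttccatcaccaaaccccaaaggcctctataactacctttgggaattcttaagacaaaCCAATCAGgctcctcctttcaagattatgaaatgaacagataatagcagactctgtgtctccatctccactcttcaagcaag
H2-M9 (chr17:36642664-36642863, minus strand): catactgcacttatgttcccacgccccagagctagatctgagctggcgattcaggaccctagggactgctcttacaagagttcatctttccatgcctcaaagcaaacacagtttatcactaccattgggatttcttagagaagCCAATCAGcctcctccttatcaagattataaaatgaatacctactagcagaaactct
H2-M2 (chr17:37483555-37483754, minus strand): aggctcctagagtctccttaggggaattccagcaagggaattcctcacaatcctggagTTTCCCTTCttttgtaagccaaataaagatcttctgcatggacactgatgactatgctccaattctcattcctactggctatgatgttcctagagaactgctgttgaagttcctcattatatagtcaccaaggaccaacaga

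Within the 250 bases before the start, 27 of the 32 members have a RefSeq promoter, and the shares among all 32851 RefSeq promoters give the background. The NF-kB site was found in 2 of 2 classical class I promoters, 111 bases before the start of H2-K1 and 171 before that of H2-D1, in 0 of the other 25 members and in 0.213% of all promoters. The interferon core was found in both classical class I promoters, in 2 of 3 Q promoters, in 2 of 12 M promoters (H2-M3 and H2-M2) and in 0 of 8 class II promoters, against 6.31% of all. The Y box was found in 4 of 8 class II promoters (H2-Oa, H2-Aa, H2-Eb1 and H2-Eb2), each time on the gene's strand, and in 8 of 12 M promoters, each time on the opposite strand and 57 to 82 bases before the start. It was also found in 1 of 2 classical class I promoters, that of H2-D1, on the opposite strand and 53 bases before the start. Among all promoters 3.83% held it. The AP-1 site was present in 1 class II and 2 M promoters, against 6.75% of all. None of the searched motifs overlapped another in the sequences shown. A match describes these letters only, and binding of a factor was not measured.

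The depth at single promoters was low. The promoter reads of a library summed to 162233 (v102) and 229605 (v134) for ChIP and to 619100 and 1084349 for input. The median promoter held 4 and 5 ChIP reads against 20 and 37 input reads, and the 32 members had medians of 4.0 and 4.5 against 18.0 and 35.0. The deposited H3K9me2/input ratio is summed ChIP reads over summed input reads and is not scaled for library size, so its value over all promoters together was 0.230 and its median was 0.162. A ratio in bulk chromatin cannot tell the share of cells that carry the mark from the amount of it per cell. At the reference loci of the study, the ratio was 0.0119 at the housekeeping gene Actb, 0.455 at Magea2 and 0.537 at Mmp3. Of 5 VSMC markers, Myh11 had 0 ChIP reads against 60 input reads, Acta2 (0.0833), Tagln (0.0820) and Cnn1 (0.0725) had low ratios, and Smtn had 0.613. Among leukocyte markers, Ptprc (0.730) and Itgam (0.609) were above input, Cd3e had 0.343, and Cd68 (0.0769) was low. RNA was not measured in these libraries.

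Across the members the ratio ran from 0.0227 at H2-Q10 to 1.41 at H2-M2. The 6 highest ratios belonged to M genes. ChIP reads were above input at 4 of 32 promoters (H2-M11, H2-M9, H2-M1 and H2-M2) when tested with edgeR (quasi-likelihood, p-values adjusted after Benjamini and Hochberg over the whole table), against 18.6% of all promoters. They were below input at 3 of 32 (H2-Ab1, H2-Q10 and H2-Ke2), against 17.0% of all promoters. Both shares were below the background. The deposited ratio reached the top quartile of all promoters (at least 0.343), the study's cut for high H3K9me2, at 6 of 32 members against a background of 25%. All 6 were M genes. With the trend of the log2 ratio with GC content removed, 7 of 32 were in the top quartile, again against 25% of all promoters with a GC value, and these were 5 M genes (H2-M11, H2-M9, H2-M1, H2-M10.5 and H2-M2), H2-T3 and the non-MHC gene H2-Ke6. In both experiments taken separately, 5 of 32 were in the top quartile of the log2 ratio, against 17.7% of all promoters. The median of the mean log2 ratio, in which reads are scaled by library totals and 1 read is added, was -0.37 over the members and -0.31 over all promoters.

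**Figure D1:**
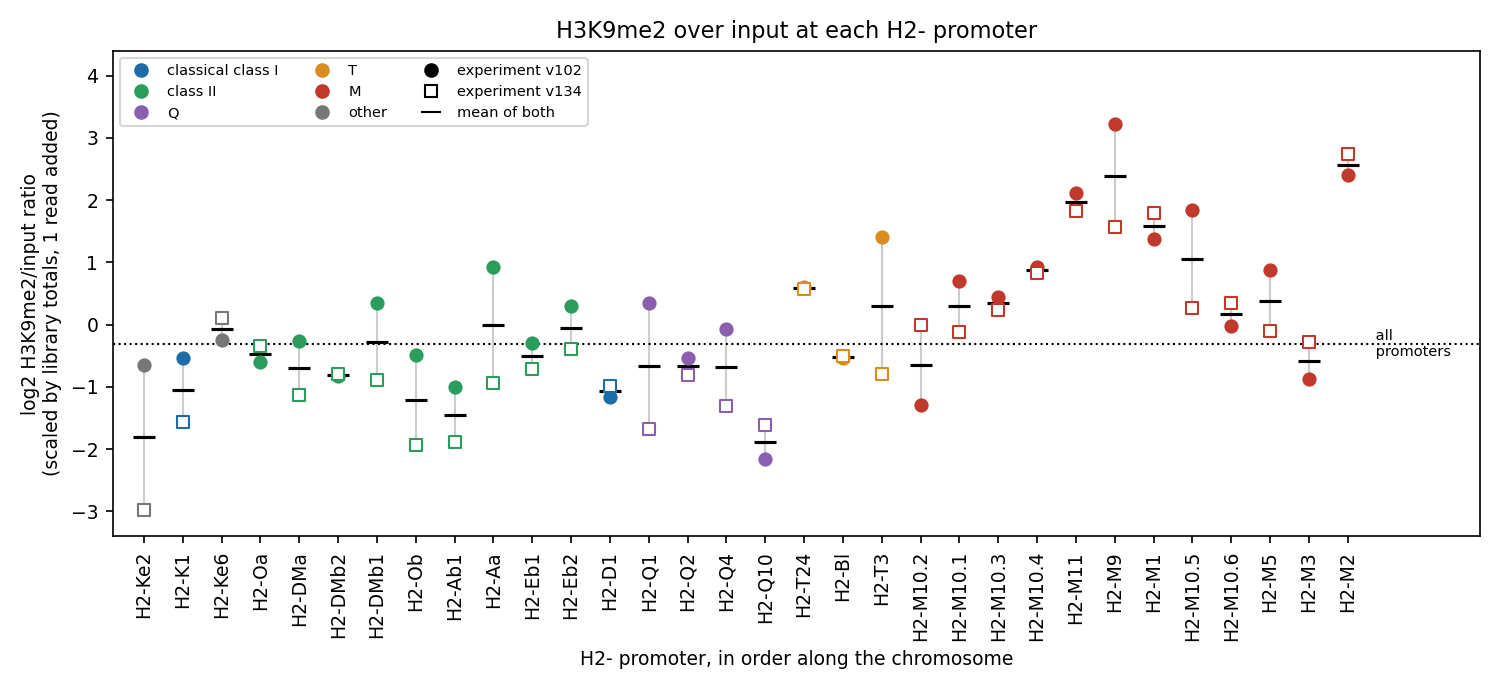
The log2 H3K9me2/input ratio (y axis, reads scaled by library totals with 1 read added) is plotted for each of the 32 H2- promoters in chromosome order (x axis), with filled circles for experiment v102, open squares for v134, black bars for their mean and colors for the class. H2-M11, H2-M9, H2-M1 and H2-M2 lie at 1.38 or higher in both experiments and no other member does, and the dotted line marks the median of all promoters at -0.31.

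The classical class I genes encode the heavy chains that present peptides on most nucleated cells. At H2-K1 there were 1 and 0 ChIP reads (v102 and v134) against 10 and 13 input reads, a ratio of 0.0435. At H2-D1 there were 1 and 2 ChIP reads against 16 and 27 input reads, a ratio of 0.0698. Both ratios were below the table median, but neither promoter passed the test, with log2 fold changes of -2.17 ± 1.21 (SE, edgeR adjusted p = 0.144) and -1.55 ± 0.85 (SE, adjusted p = 0.133). The 95% Wilson interval of the ratio, which covers counting error only, ran from 0.00745 to 0.254 at H2-K1, and thus included the table median of 0.162 at this depth. The input at H2-K1, 23 summed reads, was the lowest of the 32 members and compares with a table median of 57.

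The class II genes encode I-A (H2-Aa and H2-Ab1), the beta chains of I-E (H2-Eb1 and H2-Eb2) and the chaperones DM and DO that edit the peptide in endosomes. C57BL/6 mice lack the I-E alpha chain. None of the 9 reached the top quartile, and their ratios lay between 0.0536 and 0.211. H2-Ab1 had 2 and 1 ChIP reads against 22 and 34 input reads. Its partner H2-Aa had 6 and 3 against 13 and 35, a ratio of 0.188. The log2 ratio of H2-Aa was 0.93 in v102 and -0.93 in v134, so the experiments fell on opposite sides of the table median. H2-Ab1 was low in both experiments, at -1.01 and -1.89.

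H2-Eb1 had 5 and 6 ChIP reads against 27 and 53 input reads, a ratio of 0.138. H2-Eb2 had 8 and 4 against 27 and 30, the highest ratio of the class. Of the DM genes, which catalyze peptide exchange, H2-DMa had 4 and 2 ChIP reads against 22 and 30 input reads, H2-DMb2 had 3 and 4 against 26 and 40, and H2-DMb1 had 3 and 3 against 11 and 34. Their ratios of 0.115, 0.106 and 0.133 differed by less than their counting intervals. The DO genes, whose product restrains DM, had 3 and 5 ChIP reads against 22 and 35 at H2-Oa and 2 and 1 against 15 and 35 at H2-Ob. H2-Ob, at 0.06, had the ratio nearest to that of H2-Ab1. The windows of H2-DMa and H2-DMb2 are less certain, since GENCODE and RefSeq place their starts more than 1 kb apart.

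H2-Ab1 was the only class II promoter to pass the test, below input with a log2 fold change of -1.93 ± 0.80 (SE, edgeR adjusted p = 0.0466). With the experiment as a replicate block its adjusted p was 0.0991. The other members below input behaved the same way. H2-Q10, a secreted class I molecule of liver, had 0 and 1 ChIP reads against 16 and 28 input reads, with a log2 fold change of -3.09 ± 1.11 (SE, edgeR adjusted p = 0.0203, and 0.0640 with the block). H2-Ke2 had 2 and 0 against 17 and 36, with -2.40 ± 0.91 (SE, edgeR adjusted p = 0.0279, and 0.0905 with the block). With the block 0 of 32 members were below input, when 8.30% of all promoters were. DESeq2 called 0 of 32 and 0.110% of all. It gave no adjusted p to any of these 3 members, nor to 17372 of the 26354 promoters, and so could not call them. The 3 calls of the main fit rest on 0 to 2 ChIP reads per library.

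The other Q promoters were below the table median, and the T promoters ran from 0.103 to 0.328. H2-Q1, which had the highest mean log2 ratio of the Q genes, had 4 ChIP reads in v102 and 0 in v134, against 14 input reads in each, so its level was carried by v102 alone. The Q genes as a group ranged from 0.0227 to 0.143. H2-T24 had the highest level outside the M genes, with 9 and 10 ChIP reads against 24 and 34 input reads. Its log2 ratios of 0.61 and 0.57 were close together, and its ratio of 0.328 lay just outside the top quartile. H2-Bl, the blastocyst MHC gene, was the lowest T member, with 1 and 2 ChIP reads against 10 and 19 input reads. H2-T3, the thymus leukemia antigen of intestinal epithelium, had a ratio of 0.231 with log2 ratios of 1.40 in v102 and -0.80 in v134. H2-Ke6 had 5 and 7 ChIP reads against 26 and 34 input reads, a ratio of 0.2.

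The M genes held the widest range. The highest was H2-M2, with 28 and 54 ChIP reads against 20 and 38 input reads, more ChIP than input reads in both experiments although the ChIP libraries held fewer promoter reads in all. Its ratio of 1.41 (95% Wilson interval 1.01 to 1.98) exceeded that of 99.5% of all promoters, and its log2 fold change was 2.74 ± 0.34 (SE, edgeR adjusted p = 5.45e-13). At H2-M9 there were 26 and 24 ChIP reads against 10 and 39 input reads. Its log2 ratios, 3.23 in v102 and 1.56 in v134, were both high but far apart, and its 10 input reads in v102 are at the lowest count of any member in any input. The log2 fold change of H2-M9 was 2.35 ± 0.38 (SE, edgeR adjusted p = 3.86e-08). H2-M11 had 24 and 26 ChIP reads against 21 and 35 input reads, with a log2 fold change of 2.10 ± 0.38 (SE, edgeR adjusted p = 6.77e-07). H2-M1 had 14 and 27 against 21 and 37, with 1.74 ± 0.39 (SE, edgeR adjusted p = 1.03e-04). With the replicate block the adjusted p of these 4 promoters lay between 6.32e-06 and 0.00138.

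H2-M10.4 (11 and 14 ChIP reads against 23 and 39 input reads, ratio 0.403) and H2-M10.5 (14 and 10 against 15 and 42, ratio 0.421) were in the top quartile but did not pass the test, with edgeR adjusted p of 0.0715 and 0.0504. The experiments gave the same level at H2-M10.4, with log2 ratios of 0.93 and 0.82. At H2-M10.5 they gave 1.84 and 0.27. The lowest M promoter by mean log2 ratio was H2-M10.2, with 2 and 7 ChIP reads against 27 and 37 input reads. H2-M3, which presents N-formylated bacterial peptides, had a similarly low level, with 1 and 7 ChIP reads against 13 and 45 input reads and a ratio of 0.138. The remaining members H2-M10.1, H2-M10.3, H2-M10.6 and H2-M5 lay between 0.226 and 0.266.

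Reads were summed over the members of each class to compare the classes. Relative to all promoters, the M genes stood at 2.47 times in v102 and 2.02 times in v134. Class II stood at 0.743 and 0.420 times, classical class I at 0.294 and 0.236 times, Q at 0.582 and 0.262 times and T at 1.49 and 0.813 times. The M genes thus exceeded the all-promoter level in both experiments, and the intervals of the other classes included or fell below it. That level includes 30 mitochondrial promoters. On the same scale, all promoters without them stood at 1.16 times in v102 and 1.08 times in v134. The M intervals (2.00 to 3.03 and 1.71 to 2.38) lay above these values. The class II interval in v102 (0.521 to 1.06) lay below 1.16.

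**Figure D2:**
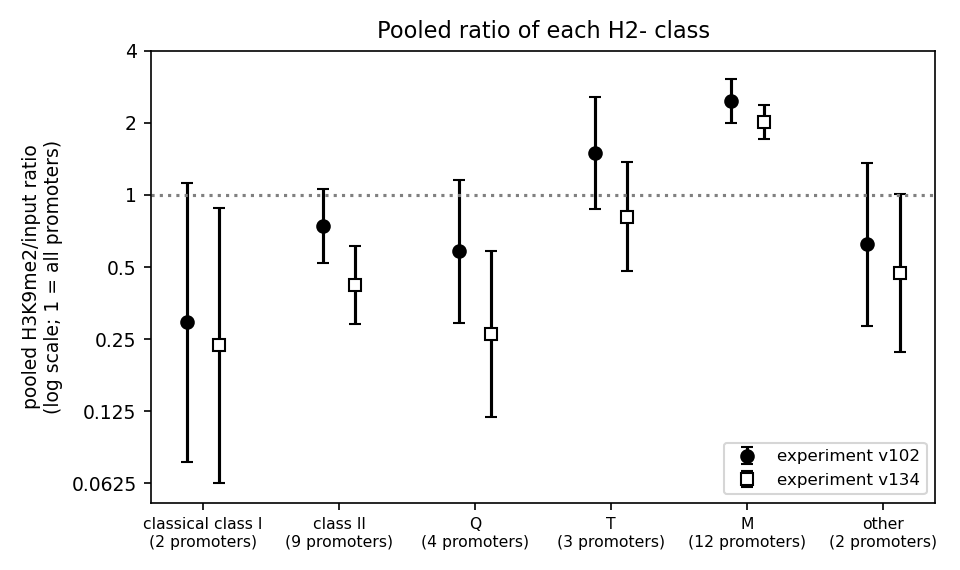
Pooled H3K9me2/input ratio of each H2- class relative to all promoters (y axis, log scale, dotted line at 1) is plotted by class (x axis), with filled circles for experiment v102 and open squares for v134, and error bars giving the 95% Wilson interval (counting error only). The M genes, at 2.47 and 2.02, are the only class whose intervals lie above 1 in both experiments.

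The class differences were tested with Fisher's exact test (two-sided) on the summed reads of each experiment, for 15 pairs of classes in 2 experiments, with Benjamini-Hochberg adjustment over the 30 tests. The M ratio was 3.32 times that of class II in v102 (adjusted p = 2.67e-08) and 4.81 times in v134 (adjusted p = 1.18e-15). It was 8.40 and 8.55 times that of classical class I (adjusted p = 0.00141 and 7.00e-04), and 4.24 and 7.70 times that of Q (adjusted p = 1.16e-04 and 1.21e-08). Against T it was 1.65 times in v102 (adjusted p = 0.191) and 2.49 times in v134 (adjusted p = 0.00255), so this difference held in 1 of the experiments. No pair without the M genes passed. Among these, class II over classical class I was 2.53 times in v102 (95% interval 0.575 to 11.1) and 1.78 times in v134 (0.409 to 7.74), intervals that include both no difference and a several-fold difference. These tests cover counting error only, and the pooled M ratio is no typical member, since single M promoters ran from 0.138 to 1.41 and H2-M2 alone gave 82 of the 347 summed ChIP reads of the class.

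The classes also differed in base composition, and in this table the log2 ratio fell with GC content. The windows of class II and M genes had similar medians, with a GC content of 46.6% and 45.6% and a CpG observed to expected ratio of 0.184 and 0.197. Those of classical class I (59.3% and 0.667) and Q (58.1% and 0.566) were richer in both. Class II and M genes can therefore be compared within a shared range of composition, though not at equal composition. Among the 3682 promoters with GC content of 42 to 50% and a CpG observed to expected ratio under 0.3, the median ratio was 0.276. All 7 class II promoters in that range were below this median, at percentiles from 4.83 (H2-Ab1) to 37.9 (H2-Eb2). Of the 10 M promoters in it, 6 were above the median and 4 above the 75th percentile. These 4 (H2-M9, H2-M1, H2-M11 and H2-M2) had a GC content of 43.1% to 44.8%. Every class II window in the range had 45.4% or more. The M windows of the range with 45.4% or more had ratios of 0.141 (H2-M10.2) to 0.421 (H2-M10.5), and none of them passed the edgeR test.

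Restricted to these members, the M ratio was 3.72 times that of class II in v102 (95% interval 2.36 to 5.86, Fisher's exact test p = 1.88e-09) and 5.43 times in v134 (3.45 to 8.55, p = 6.71e-17). This restriction was chosen after the data were seen, and these tests too cover counting error only. It left out H2-M3 (0.138) and H2-M5 (0.266) of the M genes, and H2-DMa (0.115) and H2-DMb1 (0.133) of class II. The multiples here and those over all members therefore rest on different members. The 2 classes overlapped within the range, with H2-M10.2 at percentile 23.8, below H2-Aa (33.6) and H2-Eb2. The part of base composition in the class difference was not tested. For the classical class I and Q genes, no such comparison with M was possible, since no member of these classes has a window in that range, and there class and composition cannot be told apart. The trend of the log2 ratio with GC content was fitted without some large gene families, among them the olfactory receptors. Against it, the 12 M promoters had a median percentile of 73.5 and ran from 23.9 (H2-M10.2) to 98.8 (H2-M2). The 9 class II promoters had a median of 38.4 and ran from 5.36 (H2-Ab1) to 72.8 (H2-DMa). H2-K1 stood at 50.0 and H2-D1 at 46.6.

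**Figure D3:**
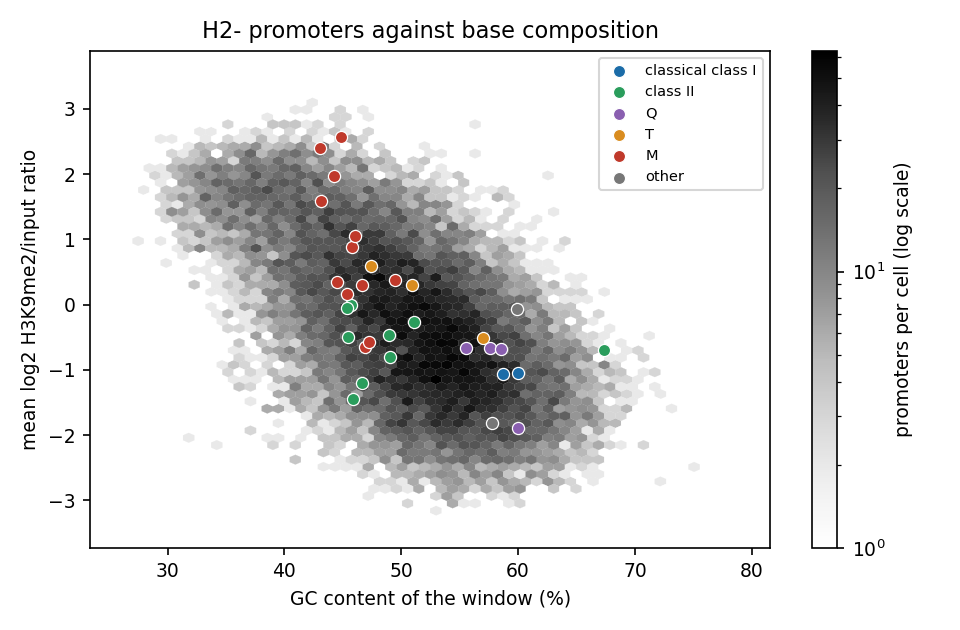
Mean log2 H3K9me2/input ratio (y axis) is plotted against the GC content of the promoter window in percent (x axis), with gray hexagons for the number of promoters of the table (log scale) and colored points for the H2- promoters by class. At a GC content near 45%, most M genes (red) lie above the class II genes (green), but the classes overlap, with H2-M10.2 (-0.65) below H2-Aa, H2-Eb2 and H2-Eb1, and classical class I (blue) and Q (purple) lie within the cloud at 55.5% and above.

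The M genes were also described by position. From H2-M10.2 to H2-M10.6, 9 M promoters follow each other over 526 kb with no other promoter of the table between them. This run consists of the M1 and M10 families, known for expression in sensory neurons of the vomeronasal organ together with V2R pheromone receptors. The summed ratio rose at each step from H2-M10.2 (0.141) through H2-M10.1 (0.226), H2-M10.3 (0.25), H2-M10.4 (0.403) and H2-M11 (0.893) to H2-M9 (1.02), and fell at each step through H2-M1 (0.707) and H2-M10.5 (0.421) to H2-M10.6 (0.242). GC content along the run was lowest at H2-M9 and H2-M1 (both 43.1%) and highest at H2-M10.2 (46.9%). Against the same GC trend as above, H2-M10.3 (percentile 49.9) fell below H2-M10.1 (56.7), and the other steps kept their direction. The promoters next to the run were low. Trim39, 14.2 kb before H2-M10.2, had a ratio of 0.0606, and Trim26, 24.96 kb after H2-M10.6, had 0.0959. Their windows had a GC content of 58.5% and 51.7% and a CpG observed to expected ratio of 0.656 and 0.556. In the run these were 43.1% to 46.9% and 0.0816 to 0.245. Position and base composition thus changed together at both ends, and the part of each was not tested.

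The single experiments kept the rise in the middle of the run but not each step. In v102 the ratio relative to all promoters was 0.283 at H2-M10.2, 4.36 at H2-M11, 9.92 at H2-M9, 2.54 at H2-M1 and 0.881 at H2-M10.6. In v134 the same promoters stood at 0.894, 3.51, 2.91, 3.45 and 1.18. In both experiments H2-M11, H2-M9 and H2-M1 had intervals wholly above 1, and H2-M10.2 and H2-M10.6 had intervals that included it. The order of H2-M11, H2-M9 and H2-M1 differed between the experiments. Their counting intervals overlapped in both, though only narrowly for H2-M9 and H2-M1 in v102. The 200 bases shown above for H2-M10.3, H2-M11 and H2-M9 hold the same Y box letters, at ratios of 0.25, 0.893 and 1.02.

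**Figure D4:**
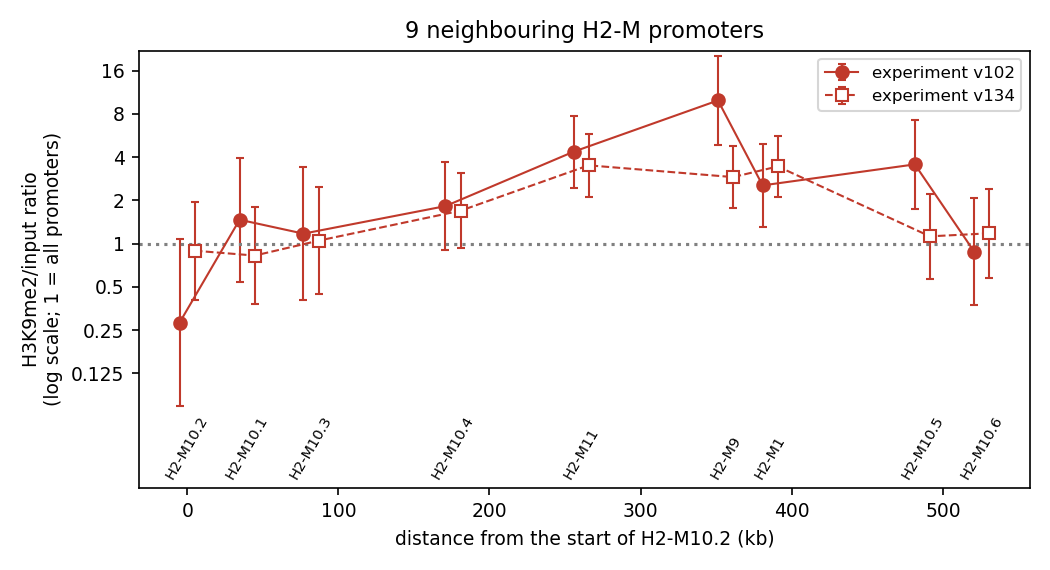
H3K9me2/input ratio relative to all promoters (y axis, log scale, dotted line at 1) is plotted for 9 neighboring H2-M promoters by distance from the start of H2-M10.2 in kb (x axis), with filled circles for experiment v102, open squares for v134, offset slightly for clarity, and 95% Wilson intervals. At H2-M11, H2-M9 and H2-M1 the intervals of both experiments lie above 1, at H2-M10.5 only that of v102 does, and both intervals include 1 at either end of the run.

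H2-M2 lies apart from that run, among olfactory receptor genes. All 7 promoters between H2-M3 and H2-M2 belong to olfactory receptors, with ratios from 0.275 to 1.22 and a median of 0.977, and 6 of them were in the top quartile. Their GC content ran from 34.8% (Olfr107) to 43.5% (Olfr108), against 44.8% at H2-M2, and the part of base composition was not tested. H2-M3 itself, 213 kb from H2-M2 and bordering the same genes, was low (0.138). On its other side, 13 promoters lie between H2-M5 and H2-M3, 8 of them of olfactory receptors. These 13 had ratios from 0.0179 to 0.510 and a median of 0.241, with 4 in the top quartile. The class II genes lie among promoters that were low as well. The 8 other promoters between H2-Oa and H2-Eb2 had a median ratio of 0.0782 and none was in the top quartile. Their GC content ran from 43.7% (Gm20513) to 60.1% (Psmb9), against a class II median of 46.6%, and the part of base composition was not tested. Between H2-Eb2 and H2-D1, 65 promoters had a median of 0.0833 with 5 in the top quartile, and between H2-Q10 and H2-T24, 36 promoters had a median of 0.0850 with none.

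**Figure D5:**
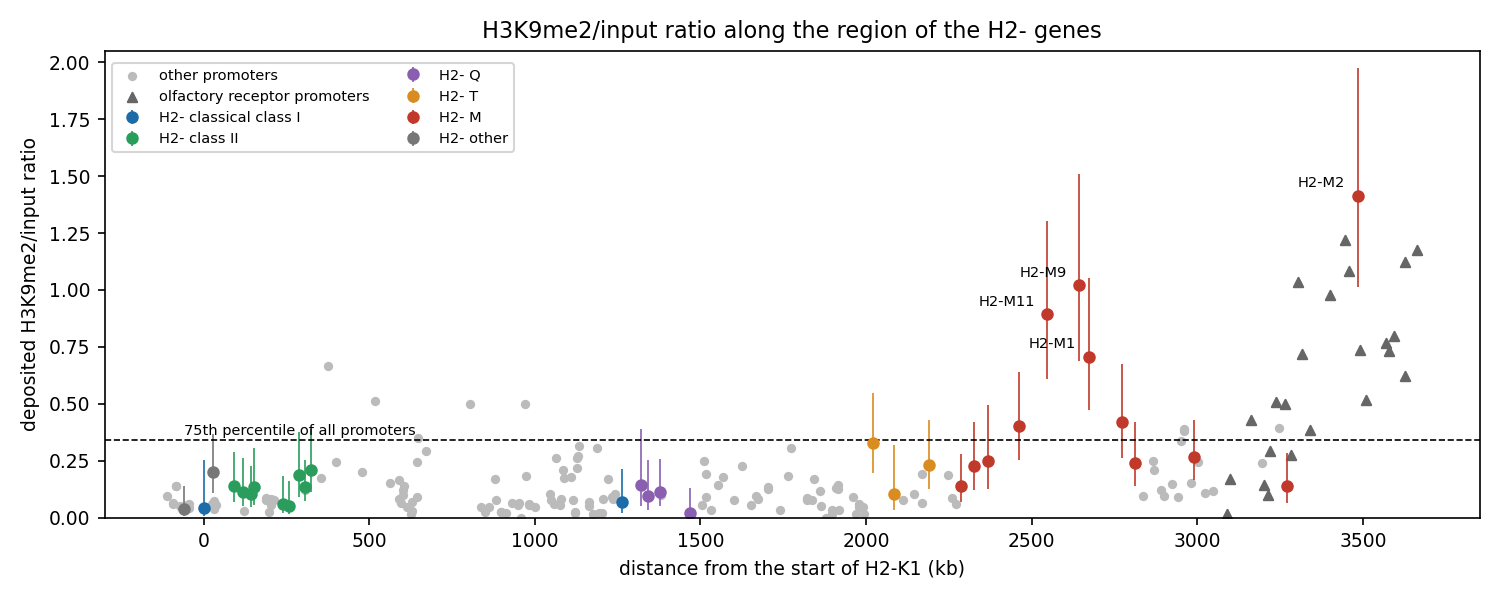
Deposited H3K9me2/input ratio (y axis) is plotted for all promoters of the region by distance from the start of H2-K1 in kb (x axis), with colored circles and 95% Wilson intervals for H2- promoters by class, triangles for olfactory receptor promoters and gray points for all others, and a dashed line at the 75th percentile (0.343). H2-M promoters rise above the dashed line around H2-M9 and, among olfactory receptor promoters, at H2-M2. The classical class I, class II, Q and T promoters stay below it.

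The genes of the antigen presentation pathway outside the H2- family were taken from 4 lists, of which 40 of 42 genes were measured. Above input was 1 of 40, against 18.6% of all promoters, and the same gene was the 1 of 40 in the top quartile, against 25%. This was Azgp1, a class I-like gene for a secreted lipid-mobilizing protein, with 16 and 22 ChIP reads against 21 and 46 input reads (ratio 0.567, log2 fold change 1.46 ± 0.39 SE, edgeR adjusted p = 0.00143). Below input were 9 of 40, against the background of 17.0%. In the class I pathway, whose 15 genes had a median ratio of 0.0870, these were Tapbpl (0.0233), a peptide editor, and the immunoproteasome subunits Psmb8 (0.025) and Psmb10 (0.0395). The 9 measured genes of the class II pathway had a median ratio of 0.182. Those below input were Ifi30 (0.0435), the lysosomal thiol reductase, and Rfxank (0.0484), a subunit of the RFX complex that binds class II promoters. Ciita, in the same pathway, had a ratio of 0.235 and did not pass the test (edgeR adjusted p = 0.791). The others were the class I-like genes Mr1 (0.0441) and Hfe (0.05), the interferon-gamma receptor chain Ifngr1 (0.0278) and the NF-kB subunit Rela (0.0303). B2m, the light chain shared by class I molecules, had 6 and 2 ChIP reads against 17 and 34 input reads, a ratio of 0.157. With the replicate block 4 of 40 were below input (Tapbpl, Psmb10, Ifngr1 and Rela), when 8.30% of all promoters were. DESeq2 gave no adjusted p to any of the 9 genes and so could not call them. As for the H2- promoters, the calls below input differed between the main fit and the fit with the block.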

How the data were processed

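H3K9me2 ChIP-seq was done on medial aortic cells in 2 experiments, each with 1 ChIP library and its own input. The authors trimmed reads (Trim Galore 0.4.2, cutadapt 1.9.1), aligned them to GRCm38 with Bowtie2 2.2.7 and deposited raw read counts within 1 kb of each transcription start site, counted with SeqMonk, together with their sums. They also deposited a ratio, ChIP reads over input reads after summing both experiments, unscaled. Promoters with fewer than 20 input reads were removed by the authors, and the lowest summed input in the table is 21 reads. The annotation release and the handling of duplicate reads are not given in the sources used here.

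Members were all rows with the prefix H2-, and classes followed the symbols. The members, gene lists and tests were chosen with earlier results of these data known. Counts are given for every classical class I and class II member, every member with an adjusted p under 0.05 and the highest and lowest member of each class by mean log2 ratio. Further T, M and list values (H2-T3, H2-M3, H2-M10.4, H2-M10.5, B2m and Ciita) were added after values were seen. For ChIP against input, the counts of all 26354 promoters went into a quasi-likelihood fit (edgeR 4.0.16, run in R 4.3.3, TMM normalization), tested on simulated data beforehand. SE is the log2 fold change over the square root of its F statistic. DESeq2 1.42.0 was an alternative. Libraries numbered alike come from the same experiment, as the labels and methods pair each ChIP with its associated input, and the correlation of their deviations was 0.104. The test rests on 2 libraries against 2, and p-values measure the spread between these libraries.

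Log2 ratios used 1 added read and library totals over the table, which are not library depths. Wilson intervals (95%) and Fisher's exact tests (scipy 1.17.1) cover counting error only. Positions and base composition come from GENCODE M21, in which 22329 symbols matched, and the start sites of the authors may differ from these. GC trends are lowess fits with a fraction of 0.3. The promoters of olfactory receptors, vomeronasal receptors, keratin-associated proteins, beta-defensins and mitochondrial genes were left out of these fits. Apart from the mitochondrial ones, they were still ranked against the trend. Of all 75-base words in a member's window, 90.5% (H2-DMb1) to 100% occur once in the genome, counting exact matches. Loss of reads in mapping was not tested, and summed input at H2-K1, H2-Q1 and H2-Bl was 0.404, 0.491 and 0.509 of the table median. The windows of H2-Ke2 and H2-Q4 overlap those of Wdr46 and Gm11131, and reads in the overlaps are shared.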

Additional observations from a re-analysis of the deposited data

How the results depend on the processing

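The count of H2- promoters above input was 4 or 5 under every alternative run, and H2-M11, H2-M1 and H2-M2 passed in each. H2-M9 passed in each fit that tested it and was not tested when each input had to hold 20 reads, where H2-M10.4 passed instead. H2-M10.5 was the fifth promoter without the mitochondrial promoters and without the ChIP library of v134. With the replicate block (ChIP paired with input by experiment), the count above input was 4 and that below input was 0. The 3 promoters below input also fell to 0 with DESeq2, where the adjusted p was undefined for 22 of 32 members, including these 3. The count was 0 as well under the minimum of 20 per input, in which 15 members remained. That minimum removed H2-Q10 and H2-Ke2, and H2-Ab1 had an edgeR adjusted p of 0.123 there. Leaving out 1 library in turn gave 0 to 3, with 0 without either input library, 1 without the ChIP library of v134 (H2-Q10) and 3 without that of v102 (H2-Ke2, H2-Ab1 and H2-Q1). For the antigen presentation lists, 9 below input became 12 with library totals in place of TMM and 4 with the block. The count was 0 with DESeq2, which gave an adjusted p to 3 of the 40 genes. None of the 9 was among these, so DESeq2 could not call them. Under the minimum of 20 per input the count was 4, with 18 of the 40 genes remaining. That minimum removed Psmb8, Psmb10 and Mr1, which had 10, 19 and 19 input reads in v102. With 1 library left out the count was 0 to 7 (1 without the input of v102, 0 without that of v134). Azgp1 was above input throughout. Shares over all promoters are given above input for the main fit only, and below input for the main fit, the block and DESeq2. Counts under the other settings have no background beside them.

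The top-quartile count of 6 ranged from 5 to 9, being 9 in v102 alone and 5 in v134 alone, and 4 members were in the top 10%. The median log2 ratio of the members, -0.37, was 0.48 with 5 reads added, -0.049 under the minimum of 20 per input and 0.17 with the GC trend removed, and the single experiments gave -0.042 (v102) and -0.45 (v134). The pooled M ratio of 2.17 times was 1.45 times as the median of single promoters. Scaling by library totals moved the all-promoter median of the log2 fold change from -0.35 to -0.50 and left both member counts as they were. Over all promoters, 4484 were below input in the main test, 2187 with the block and 29 with DESeq2, where 17372 had no adjusted p. The cause of these changes was not tested. No member shared its window with another member. Restricting class II and M to a shared range of GC and CpG content was chosen after seeing the data.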
